A study of Arabidopsis thaliana with 54 samples.

Results

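Roots of Arabidopsis thaliana plants carrying the spl7 insertion line SALK_109908c were compared with roots of Col-0, the wild type, after the same pretreatment. The 3 spl7 libraries are those labelled as spl7 root with iron and copper supplied and the suffix Ex, and the 3 Col-0 libraries are those labelled as Col-0 root with iron and copper supplied. Together they make 6 of the 54 libraries of the study, chosen by label alone, and all genes were examined. Both groups grew in hydroponic culture with 25 µM iron and 0.1 µM copper and then spent 3 days in the control solution with 25 µM iron and 0.5 µM copper.

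The whole study crosses Col-0 and spl7 with iron and copper withdrawal in roots and rosettes, in 18 groups of 3 libraries, 9 of them from roots. All other spl7 groups had been pretreated with 2.5 µM copper. Their root group in the control solution (3 libraries, called high-copper spl7 here) is quoted for reference. The labels do not explain the suffix Ex, which marks only the spl7 plants pretreated with 0.1 µM copper, so whatever it stands for cannot be told apart from genotype here or from pretreatment within spl7. All spl7 libraries come from 1 insertion line. Replicates are biological by their labels, with no separate containers or harvests named. The p-values therefore measure only the spread between libraries of a group, which may be technical. For the root comparison that spread was estimated over all 27 root libraries, with the other treatments and pretreatments among them.

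SPL7 is a transcription factor of the SQUAMOSA promoter binding protein-like family and the central regulator of the plant response to copper shortage. In roots it is known to switch on copper reductases and transporters, which bring copper into the cell. It also switches on an iron superoxide dismutase, FSD1, and microRNAs that lower the messages of dispensable copper proteins such as the copper/zinc superoxide dismutases. Family members bind DNA with the core GTAC.

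Of 20462 genes tested in roots, 2712 (13.3%) differed at an adjusted p below 0.05 in edgeR's quasi-likelihood test with Benjamini-Hochberg adjustment, here termed called. They comprised 1382 (6.75%) higher and 1330 (6.5%) lower in spl7. At least 2-fold changes numbered 626 (3.06%), of which 388 were higher and 238 lower. The median log2 change over all tested genes was 0.01, and the middle of the distribution, from its 5th to its 95th percentile, ran from -0.62 to 0.74. The libraries of the groups did not overlap for 36.3% of all tested genes. Without Col-0 replicate 2 the number of calls was 1249, without spl7 replicate 2 it was 1305, without spl7 replicate 3 it was 1726, and in all 6 fits that left out a library 946 of the 2712 calls were kept, all 2712 with the same sign. Without the iron-free spl7 root library of replicate 3, which enters only the shared estimate of spread, there were 5036 calls.

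**Figure D1:**
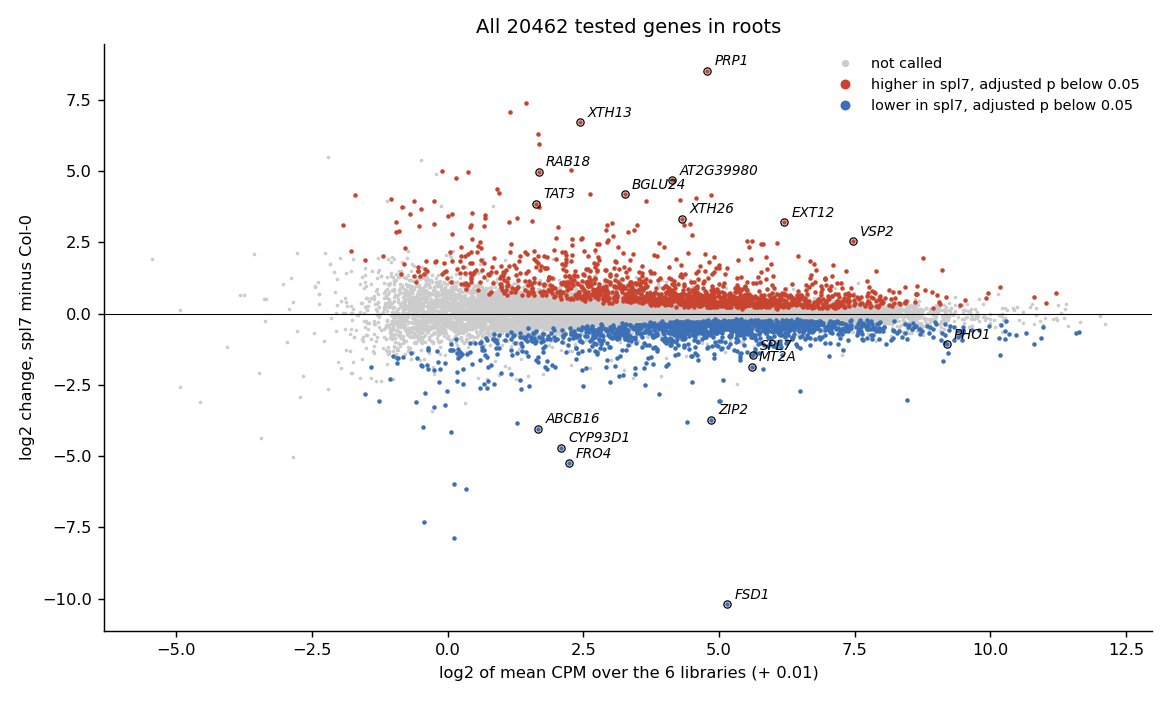
Each point is 1 of the 20462 genes tested, with the log2 of its mean CPM (counts per 1e6 reads) over the 6 libraries (+ 0.01) on the horizontal axis and the fitted log2 change, spl7 minus Col-0, on the vertical axis. The 1382 genes called higher and the 1330 called lower are coloured, and FSD1 and PRP1 stand at the ends of the vertical scale. Fitted changes of genes with almost no counts in a group depend on the prior count.

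The libraries held 12.65 M to 17.28 M counted reads (M, 1e6) and between 22741 and 22996 genes with at least 1 read. The first principal component, 58.1% of the variance, separated the genotypes. Summed levels of 9 root markers were between 2356 and 4980 CPM over all root libraries of the study and between 48.3 and 84.6 in rosettes. Replicates within a group differed by more than sampling noise. In bulk roots, fewer cells of a type and less RNA per cell cannot be told apart.

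SPL7 itself (AT5G18830, chr5:6275895-6280681) was read first, since it checks the labels. Col-0 roots had 67.1, 77.8 and 70.8 CPM and spl7 roots 24.7, 26.4 and 27.6 CPM. The groups were well separated, and the message was still present in the mutant at 2.74-fold less, a log2 change of -1.45 ± 0.08 (SE, adjusted p = 6.19e-11 in edgeR). High-copper spl7 roots were at the same low level, with 28.9, 24.8 and 23 CPM. None of 8 measured genes among the 10 neighbours of SPL7 was called in edgeR, and 0 had an unadjusted p below 0.05. Counts over the whole gene do not show whether the remaining reads come from an intact message.

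Most genes of the known response to copper shortage were lower in spl7 roots. Of 11 genes on this list, 10 were measured, 6 were called lower and none higher, against 6.5% of all tested genes called lower. The median log2 change was -2.02, or -1.90 without FRO5, whose counts were at most 3 in each library. The value -1.90 is that of CITF1, which was also almost unread and was not called. Below are the 300 bases upstream of 4 of the lower genes and of MIR398C, with each GTAC, the core that SPL7 recognises, in capitals. They are shown because the loss of SPL7 is the contrast made here, and they were chosen for holding the core. The windows are those of FSD1 (chr4:12887012-12887311, minus strand), ZIP2 (chr5:23992909-23993208, minus strand), YSL2 (chr5:8323595-8323894, plus strand), CCH (chr3:20864728-20865027, minus strand) and MIR398C (chr5:4694394-4694693, plus strand) in TAIR10.1, each printed 5′ to 3′ on the gene's strand.
FSD1: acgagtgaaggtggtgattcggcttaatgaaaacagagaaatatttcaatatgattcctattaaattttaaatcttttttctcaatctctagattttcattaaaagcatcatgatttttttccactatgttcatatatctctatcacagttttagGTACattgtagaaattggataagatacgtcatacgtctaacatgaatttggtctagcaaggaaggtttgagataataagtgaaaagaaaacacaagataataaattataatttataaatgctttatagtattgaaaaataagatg
ZIP2: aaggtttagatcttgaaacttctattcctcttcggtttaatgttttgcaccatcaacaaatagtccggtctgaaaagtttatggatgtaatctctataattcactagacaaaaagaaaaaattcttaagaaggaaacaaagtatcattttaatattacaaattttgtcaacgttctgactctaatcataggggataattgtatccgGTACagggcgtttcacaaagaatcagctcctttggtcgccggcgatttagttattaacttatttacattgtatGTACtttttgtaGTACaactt
YSL2: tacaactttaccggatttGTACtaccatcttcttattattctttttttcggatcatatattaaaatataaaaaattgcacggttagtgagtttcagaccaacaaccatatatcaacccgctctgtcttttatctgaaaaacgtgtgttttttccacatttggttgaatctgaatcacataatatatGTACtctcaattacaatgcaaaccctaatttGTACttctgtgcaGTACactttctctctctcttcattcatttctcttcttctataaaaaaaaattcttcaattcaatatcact
CCH: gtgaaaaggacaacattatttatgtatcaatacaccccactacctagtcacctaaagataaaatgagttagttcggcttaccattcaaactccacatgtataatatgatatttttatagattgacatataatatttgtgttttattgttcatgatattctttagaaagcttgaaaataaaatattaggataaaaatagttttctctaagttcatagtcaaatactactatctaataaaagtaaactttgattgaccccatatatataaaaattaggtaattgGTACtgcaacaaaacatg
MIR398C: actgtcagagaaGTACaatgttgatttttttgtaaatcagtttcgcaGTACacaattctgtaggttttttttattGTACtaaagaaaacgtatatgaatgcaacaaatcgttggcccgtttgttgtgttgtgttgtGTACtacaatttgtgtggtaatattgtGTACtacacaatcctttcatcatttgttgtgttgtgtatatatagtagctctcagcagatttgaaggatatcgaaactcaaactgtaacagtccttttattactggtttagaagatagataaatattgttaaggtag

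GTAC is its own reverse complement, so 1 search covers both strands. It occurred 1 time upstream of FSD1, 3 times upstream of ZIP2, 4 times upstream of YSL2, 1 time upstream of CCH and 5 times upstream of MIR398C. CITF1 and BHLH23, response genes that were not called, had 1 copy each, so the core occurred in both called and uncalled members. No GTAC was present in this window of FRO4 or COPT2, both called lower, or of FRO5 or COPT1. The letters are common, with at least 1 copy in 40.3% of the windows of 20250 tested genes, in 42.1% of genes called lower and in 38.1% of genes called higher. Among genes lower by at least 2-fold the share was 48.3% (114 of 236), and among genes higher by at least 2-fold it was 39.7%. At least 3 copies were found in 2.25% of all tested windows, in 2.42% of genes called lower and in 2.26% of genes called higher. Among genes changed by at least 2-fold the shares were 3.39% for lower and 2.35% for higher genes. The windows of ZIP2, YSL2 and MIR398C were chosen for holding the core, so their copies cannot be set against these shares. A match describes the letters and is not evidence of binding.

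FSD1 (AT4G25100, chr4:12884300-12887011), the plastid iron superoxide dismutase, was nearly silent in the mutant. Col-0 roots had 965, 1221 and 897 reads, or 70.5, 73 and 69 CPM. The spl7 libraries had 1, 1 and 0 reads. The ratio of summed reads, scaled for depth, was 1380-fold (95% exact interval 382 to 11400, counting error only, adjusted p = 4.95e-12 in edgeR). High-copper spl7 roots had 0, 2 and 4 reads, and Col-0 roots without copper reached a mean of 304 CPM.

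The reductases and transporters of the root surface followed. FRO4, a reductase that makes copper available for uptake, was at 11, 9.92 and 6.46 CPM in Col-0 and at 0.153, 0 and 0.543 CPM in spl7. Every Col-0 library lay far above every spl7 library, with a log2 change of -5.25 ± 0.56 (adjusted p = 2.15e-06 in edgeR). ZIP2, a metal transporter of the ZIP family, stood at 54.4, 64.7 and 42.4 CPM against 4.75, 3.33 and 4.19 CPM. That is a log2 change of -3.72 ± 0.26 (adjusted p = 6.16e-09 in edgeR), again without overlap, and high-copper spl7 roots gave 3.78, 5.21 and 4.76 CPM. COPT2, a high-affinity copper transporter, had 20.3, 11.5 and 13.8 CPM in Col-0 and 1.38, 3.25 and 5.66 CPM in spl7. Its spl7 libraries were low but scattered, and its call (-2.14 ± 0.61, adjusted p = 0.0234 in edgeR) was lost without Col-0 replicate 1, spl7 replicate 1 or spl7 replicate 2, the adjusted p rising to as much as 0.0872.

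YSL2 and CCH fell by smaller amounts. YSL2, a transporter of metal and nicotianamine complexes, was at 22.4, 27.5 and 20.4 CPM in Col-0 and 15.6, 10.8 and 9.78 CPM in spl7. CCH, a copper chaperone, was at 187, 184 and 175 CPM against 123, 109 and 97.8 CPM. Neither pair of groups overlapped, and the log2 changes were -0.96 ± 0.18 for YSL2 (adjusted p = 0.00122 in edgeR) and -0.72 ± 0.12 for CCH (adjusted p = 0.000233). CITF1, a bHLH factor of the copper response, was almost unread in both groups, with 0.439, 0.657 and 0.0769 CPM against 0, 0.155 and 0.155 CPM and an adjusted p of 0.133 in edgeR. COPT1 and the bHLH gene BHLH23 were not called (log2 changes 0.05 and 0.50).

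**Figure D2:**
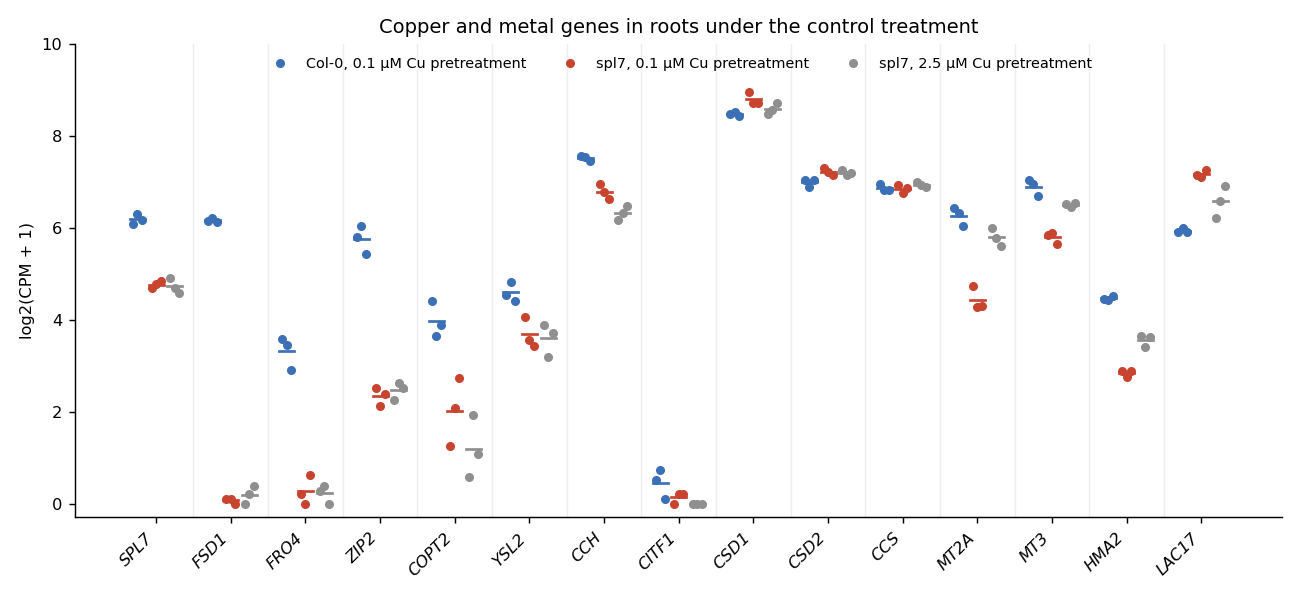
The vertical axis gives log2(CPM + 1) for 15 copper and metal genes, with 1 point per library and a group of 3 points each for Col-0, spl7 and high-copper spl7 roots, all in the control solution. FSD1 and FRO4 lie near the bottom of the scale in both spl7 groups, and ZIP2 lies well below its Col-0 points in both. MT2A and MT3 are lowest in the spl7 roots pretreated with 0.1 µM copper.

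Copper microRNAs can be seen here only through the reads of their precursor transcripts. MIR398A, MIR398B, MIR408, MIR397A and MIR397B had 0 reads in all 6 libraries, which allows up to 3 reads in each. MIR398C (chr5:4694694-4694808) had 7, 7 and 6 reads in Col-0, 0 in every spl7 library and 0 in every high-copper spl7 library. The difference, at least 2-fold against a floor of 3 reads per library, lay below the filter on low counts. The mature strand and its sites in 3 known targets are given 5′ to 3′ to show how they pair. In the microRNA the capitals mark the seed, bases 2 to 8, and in each target they mark the bases that pair with the microRNA by Watson-Crick rules.
miR398c-3p: uGUGUUCUcaggucaccccug
CSD1 site: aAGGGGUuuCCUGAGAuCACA
CSD2 site: ugcGGGUGACCUGgGAAacau
CCS site: auuGGGaGACCUGgGAACACu

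The microRNA maps to chr5:4694778-4694798, the CSD1 site to chr1:2827177-2827685 across a splice junction, the CSD2 site to chr2:12015572-12015592 and the CCS site to chr1:4267521-4267541 on the minus strand, all in TAIR10.1. Paired bases number 17 in CSD1, 13 in CSD2 and 15 in CCS. CSD1, the cytosolic copper/zinc superoxide dismutase, had 357, 365 and 344 CPM in Col-0 and 495, 421 and 422 CPM in spl7. CSD2, the plastid enzyme, had 131, 117 and 131 CPM against 157, 147 and 142 CPM. All spl7 values were above all Col-0 values for both genes, but the groups did not overlap, in either direction, for 36.3% of all tested genes. Neither CSD1 nor CSD2 passed the threshold (log2 0.33 ± 0.12, adjusted p = 0.0765, and 0.23 ± 0.09, adjusted p = 0.0876, in edgeR). CCS, their copper chaperone, had a log2 change of -0.02. In rosettes of the matching groups CSD1, CSD2 and CCS were called higher, by 0.44, 0.86 and 0.83.

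Among the 12 copper proteins under copper microRNAs, 2 were higher and 2 lower, beside 6.75% and 6.5% of all tested genes. DESeq2's Wald test also called 2 higher and 2 lower, but the 6 compared libraries alone gave 5 higher and 2 lower. The counts were again 5 and 2 without the iron-free spl7 root library of replicate 3, a fit with 5036 calls in all. The median log2 change was 0.11. LAC17, a laccase of lignin formation, was at 58.7, 62.8 and 59.1 CPM in Col-0 and 142, 137 and 151 CPM in spl7. Its groups were tight and far apart, with a log2 change of 1.25 ± 0.14 (adjusted p = 4.68e-06 in edgeR), while the high-copper spl7 roots were scattered between them at 73.6, 95.6 and 119 CPM. LAC13 and LAC7, related laccases, were lower by log2 changes of -0.70 ± 0.13 and -0.67 ± 0.14 (adjusted p = 0.00115 and 0.00311). COX5B-1, a cytochrome oxidase subunit, was higher by 0.40, a call lost without Col-0 replicate 2 or spl7 replicate 2 (adjusted p up to 0.147).

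The other copper lists held calls in both directions, beside 13.3% of all tested genes called. Of 13 copper chaperones and pumps, CCH was lower and HCC2 higher (0.52), the latter lost without Col-0 replicate 3, spl7 replicate 1 or spl7 replicate 3 (adjusted p up to 0.0773). Among 8 superoxide dismutases FSD1 alone was called. UCC3, a uclacyanin of the blue copper protein family, had 1.1, 0.538 and 1.31 CPM in Col-0 and 3.75, 5.49 and 3.8 CPM in spl7. Its levels were low but separate, with a log2 change of 2.17 ± 0.42 (adjusted p = 0.00142 in edgeR). It was 1 of 4 genes called higher among 13 other copper proteins, and the calls of the other 3 (AAO2like, AO1 and LAC11) were all lost without spl7 replicate 2, with adjusted p-values up to 0.0889, 0.103 and 0.0703 in any fit that left out a library.

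MT2A and MT3, metallothioneins, which are small cysteine-rich proteins that bind copper and zinc, were lower. On the list of 7 metallothioneins and phytochelatin synthases 6 were measured. Of these, 3 were called lower and 1 higher, beside 6.5% and 6.75% of all tested genes. MT2A had 85.1, 78.6 and 64.7 CPM in Col-0 and 25.7, 18.3 and 18.8 CPM in spl7. MT3 had 131, 123 and 102 CPM against 56.5, 58 and 49.3 CPM. Both were clearly apart, with log2 changes of -1.86 ± 0.28 (adjusted p = 0.000152 in edgeR) and -1.12 ± 0.13 (adjusted p = 7.13e-06), and high-copper spl7 roots lay between the groups at means of 54.8 and 90 CPM. MT1C, the most abundant, was lower by -0.54, a call lost without Col-0 replicate 1, Col-0 replicate 2 or spl7 replicate 2 (adjusted p up to 0.0691). PCS2, a phytochelatin synthase, was higher by 0.72 ± 0.16 (adjusted p = 0.00489) although its libraries overlapped, and the call was lost when the 6 compared libraries were fitted alone (adjusted p = 0.0642).

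HMA2, a P-type ATPase that exports zinc towards the xylem, fell to less than any Col-0 library. Col-0 roots had 21, 20.7 and 21.8 CPM and spl7 roots 6.43, 5.8 and 6.36 CPM. The spread within each group was small beside a log2 change of -1.77 ± 0.15 (adjusted p = 1.9e-07 in edgeR), and high-copper spl7 roots were intermediate at a mean of 10.8 CPM. Of 10 measured genes for zinc deficiency and zinc transport, HMA2, ZIP5 (-0.90) and IRT3 (-0.71) were lower and ZIP9 (0.90) higher. Over all tested genes, 6.5% were lower and 6.75% higher. The calls of ZIP5, IRT3 and ZIP9 were all lost without Col-0 replicate 2, and their adjusted p rose to at most 0.068, 0.0924 and 0.17 in the fits that left out a library.

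The iron uptake system scattered widely between the libraries of a group. IRT1, the root iron transporter, was at 567, 56.7 and 305 CPM in Col-0 and 13.3, 173 and 407 CPM in spl7. FRO2, the ferric reductase, was at 432, 43.9 and 217 CPM against 10.5, 164 and 404 CPM. High and low libraries occurred in both genotypes, and the log2 changes of -0.65 ± 1.15 and -0.26 ± 1.11 were not called (adjusted p = 0.746 and 0.9 in edgeR). Of 19 iron uptake genes, IRT2 (3.06) and HA2 (0.38) were called higher and none lower, beside 6.75% and 6.5% of all tested genes. Both calls were lost without Col-0 replicate 2, Col-0 replicate 3, spl7 replicate 2 or spl7 replicate 3 (adjusted p up to 0.12 and 0.101). The 23 measured iron regulators included 3 lower genes, none of which kept its call in every fit that left out a library: BHLH101 (-2.61, adjusted p up to 0.0968 without Col-0 replicate 1, spl7 replicate 1 or spl7 replicate 2), BHLH121 (-0.43, up to 0.0621 without spl7 replicate 2 or 3) and ILR3 (-0.29, up to 0.165, lost in all 6 fits). YSL1, a metal-nicotianamine transporter, was lower by -1.95 ± 0.42 (adjusted p = 0.00399), from 1.75, 1.08 and 1.46 CPM to 0.306, 0.31 and 0.466 CPM.

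Root hair genes rose together in spl7 roots. Of 10 genes on this list 8 were called higher, against 6.75% of all tested genes, none was lower, and the median log2 change was 1.37. The 8 calls were kept in each of the 6 fits that left out a library. Summed over the list, Col-0 libraries ranged from 219 to 296 CPM, spl7 libraries from 648 to 730 CPM and high-copper spl7 libraries from 222 to 315 CPM.

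PRP1 (AT1G54970, chr1:20504901-20506504), a proline-rich cell wall protein of root hairs, was the most changed of them. Col-0 roots had 4, 1 and 1 reads, and spl7 roots had 684, 713 and 731 reads, or 52.4, 55.2 and 56.7 CPM. The gene was thus close to unread in every wild-type library and steady in the mutant, a log2 change of 8.53 ± 0.74 (adjusted p = 2.05e-07 in edgeR). High-copper spl7 roots had 0.713, 0.623 and 0.604 CPM. RSL4, the bHLH factor that drives hair growth, had 1.32, 1.79 and 0.846 CPM in Col-0 and 5.82, 4.18 and 6.44 CPM in spl7. It was low everywhere but without overlap, with a log2 change of 2.02 ± 0.32 (adjusted p = 0.000224 in edgeR). The related factors RHD6, which acts at hair initiation, and RSL2, which acts with RSL4 in hair growth, were not called (-0.05 and -0.33).

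Wall proteins of growing hairs made up most of the rest. PRP3, another proline-rich protein, was at 47.1, 41.9 and 57.5 CPM in Col-0 and 163, 178 and 155 CPM in spl7. EXPA18, a wall-loosening expansin, was at 17.2, 15.2 and 20.8 CPM against 54.5, 51.4 and 53.7 CPM. In both cases the groups stood well apart, by log2 changes of 1.76 ± 0.25 and 1.59 ± 0.23 (adjusted p = 6.15e-05 and 7.21e-05 in edgeR). LRX1, an extensin with leucine-rich repeats, rose by 1.50 ± 0.25, the expansin EXPA7 by 1.23 ± 0.16, the kinase IRE by 0.95 ± 0.18 and the wall protein COBL9 by 0.78 ± 0.18 (adjusted p = 0.000325, 2.49e-05, 0.00149 and 0.00499).

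Families of wall genes were added to the lists after values had been seen, and their counts are given as description. Over all tested genes 6.75% were called higher and 6.5% lower, and counts of families chosen by their values can be raised by that choice. Among 9 RHS genes, named for expression in root hairs, 6 were higher, led by RHS12 (2.00 ± 0.24, adjusted p = 1.32e-05 in edgeR). Among 6 EXT extensins, 4 were higher. EXT12 had 13.6, 13 and 16.6 CPM in Col-0 and 122, 148 and 127 CPM in spl7, a log2 change of 3.21 ± 0.30 (adjusted p = 4.89e-07). Of 24 measured xyloglucan endotransglucosylase (XTH) genes, 4 were higher and 1, XTH24, lower (-1.51), a call lost without Col-0 replicate 2 (adjusted p = 0.0773). XTH13 had 0.146, 0.0598 and 0.0769 CPM against 10.4, 12.4 and 9.31 CPM, nearly unread in Col-0 and a log2 change of 6.72 ± 0.64 (adjusted p = 6.57e-07), and XTH26, XTH12 and XTH14 rose by 3.34, 2.61 and 1.33.

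Of the 8 hair genes called, 7 had their highest mean of the 9 root groups in these spl7 roots, and COBL9 was as high in iron-deprived Col-0 roots. These 8 were chosen for being higher in this group, which favours such a rank. The uncalled members RHD6 and RSL2 had their highest means in other groups. PRP1 averaged 54.8 CPM here, 6.04 ± 4.25 CPM (SD, n = 3) in spl7 roots deprived of copper and 0.423 CPM in Col-0 roots deprived of copper. The iron-deprived Col-0 roots gave 1.33 CPM. On the log2 scale with 0.1 CPM added, RSL4 was 1.97 above the Col-0 control in these spl7 roots, 1.21 in copper-deprived spl7 roots and 1.05 in iron-deprived Col-0 roots. These other groups differ in pretreatment or treatment, so the values are set side by side and no comparison was tested.

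**Figure D3:**
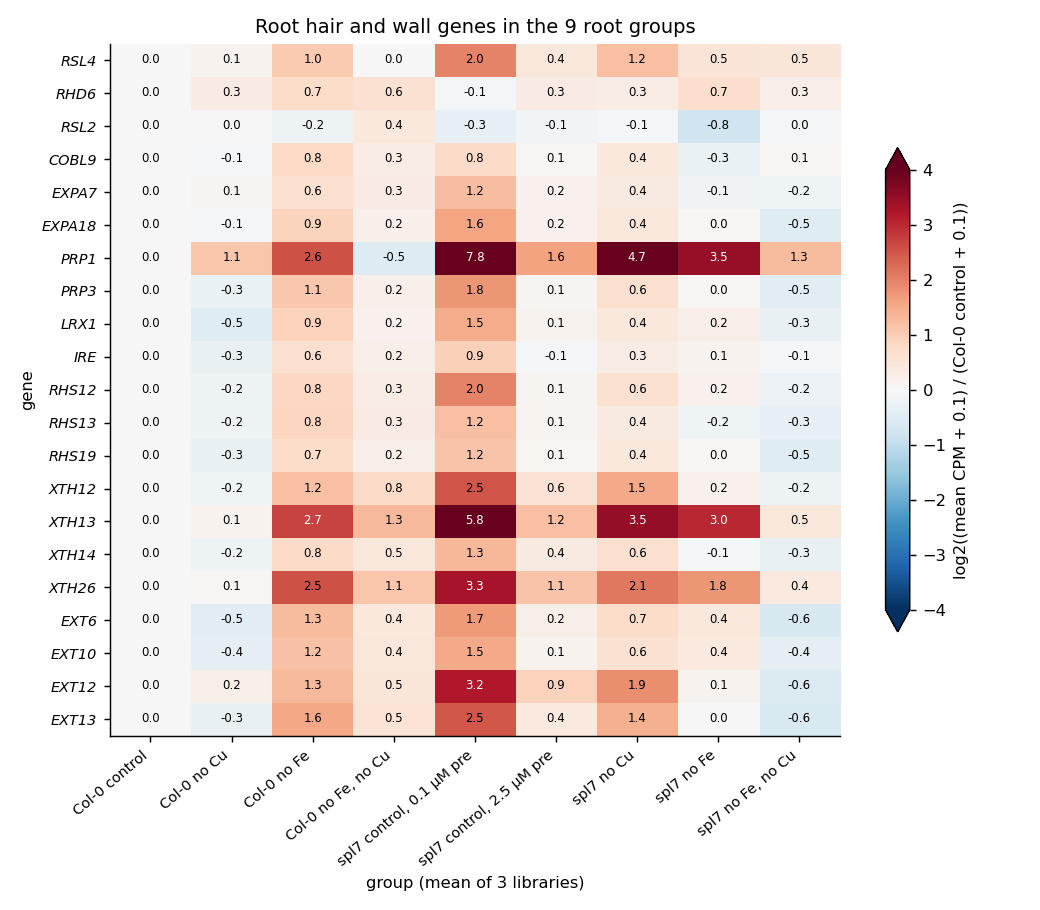
Each cell gives log2((mean CPM + 0.1) / (Col-0 control mean + 0.1)) for 1 root hair or wall gene (rows) in 1 of the 9 root groups (columns, means of 3 libraries). The column of spl7 controls pretreated with 0.1 µM copper is the darkest for most genes, and the column of spl7 controls pretreated with 2.5 µM copper is close to 0 for most.

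Genes of abscisic acid and desiccation, which protect cells during water loss, included many called higher. Of 15 measured members, 10 were called higher and none lower, beside 6.75% and 6.5% of all tested genes. The median log2 change was 1.64. KIN2, a small cold- and abscisic acid-responsive protein, had 5.63, 4.36 and 2.69 CPM in Col-0 and 45.7, 47.1 and 16.9 CPM in spl7. KIN1, its neighbour and close relative, had 0, 2 and 1 reads against 53, 137 and 51 reads, and reads of these similar genes may be divided between them. Both were high in all 3 spl7 libraries, KIN2 by a log2 change of 3.10 ± 0.41 (adjusted p = 2.76e-05 in edgeR) and KIN1 by an 89.7-fold ratio of summed reads (95% exact interval 30.3 to 438). RAB18, a dehydrin, had 0.219, 0 and 0.385 CPM in Col-0 and 9.81, 4.18 and 4.5 CPM in spl7, a log2 change of 4.98 ± 0.82 (adjusted p = 0.000309). HAI2, an abscisic acid-induced protein phosphatase, rose by 3.43 ± 0.73, RD29B by 3.14 ± 0.69, RD29A by 1.86 ± 0.29 and the NAC factor RD26 by 1.06 ± 0.19 (adjusted p = 0.00331, 0.00446, 0.000169 and 0.000917). The calls of COR15A (2.04), HAI1 (1.64) and RD22 (1.54) were each lost in at least 4 of the 6 fits that left out a library, Col-0 replicate 3, spl7 replicate 1 and spl7 replicate 2 among them, with adjusted p-values up to 0.141, 0.103 and 0.199.

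Leaf markers were mostly higher as well, but each overlapped between the groups. None of 15 was called in the edgeR fit over all root libraries or by DESeq2's Wald test, and 2 had an unadjusted p below 0.05. Fits that left out a compared library called at most 2 higher. The fit without the iron-free spl7 root library of replicate 3 called 1 higher. Of the 15 markers, 14 had positive log2 changes, and the median of all was 0.63. Their summed level was 258, 213 and 161 CPM in Col-0 roots, or 0.323%, 0.267% and 0.202% of the 79759 CPM in Col-0 rosettes. In spl7 roots it was 515, 290 and 173 CPM, or 0.734%, 0.413% and 0.247% of the 70169 CPM in spl7 rosettes. The shares of the genotypes thus overlapped. Every marker was read in every one of the 6 libraries. The spl7 share, taken of each gene's spl7 rosette level after the values had been seen, came to 93.3%, 123% and 68.5% of the root level of RAB18 in spl7 replicates 1, 2 and 3. It came to 80.4%, 108% and 45.5% of RD29B and 59%, 44.5% and 33.6% of RD29A. For COR15A it came to 92.8%, 104% and 86.8%, and for RD22 to 74.4%, 64.3% and 94.1%. In these 5 of the 10 genes called higher the share was at least 33.6% of the root level, and the part of leaf RNA in their changes was not tested. For KIN2 it was 11%, 5.98% and 9.98%, for HAI2 18%, 12.1% and 9.61%, and for RD26 2.43%, 1.18% and 0.676%. For KIN1 and HAI1 it was at most 9.49% and 5.25%. The share treats all leaf-marker reads in roots as leaf RNA. It was taken of each gene in spl7 alone, so it does not measure the difference between genotypes. The part of leaf RNA was not tested in these genes either.

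Some genes for mitochondrial dysfunction also rose. Of 9 measured, 4 were higher and none lower, beside 6.75% and 6.5% of all tested genes, with a median log2 change of 0.99. AT12CYS-2, a mitochondrial protein induced when respiration is disturbed, had 0, 0 and 1 reads in Col-0 and 66, 36 and 107 reads in spl7, a 233-fold ratio (95% exact interval 41.4 to 9264). NDB4, an alternative NAD(P)H dehydrogenase, had 0, 0 and 2 reads against 23, 13 and 33 reads, a 38.5-fold ratio (10.3 to 325). UPOX stood at 1.61, 1.73 and 1.15 CPM in Col-0 and at 11.8, 3.95 and 12.8 CPM in spl7. Its second spl7 library was well below the others yet above all of Col-0, and the log2 change was 2.65 ± 0.49 (adjusted p = 0.00105 in edgeR). NAC13, a transcription factor of this response, rose by 0.99 ± 0.19 (adjusted p = 0.0017). AOX1A, the alternative oxidase often taken as its marker, had overlapping groups and was not called (0.42, adjusted p = 0.128).

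Jasmonate genes were the next group. Of 21 measured, 7 were higher and none lower, beside 6.75% and 6.5% of all tested genes, with a median log2 change of 0.54. TAT3, a tyrosine aminotransferase induced by jasmonate, had 0.146, 0.538 and 0.462 CPM in Col-0 and 8.27, 5.42 and 3.65 CPM in spl7. VSP2, a vegetative storage protein, had 50.6, 56.1 and 48.9 CPM against 412, 365 and 130 CPM. All spl7 libraries were above Col-0, with replicate 3 the lowest in each case, and the log2 changes were 3.86 ± 0.50 for TAT3 (adjusted p = 2.42e-05 in edgeR) and 2.54 ± 0.40 for VSP2 (adjusted p = 0.000217). VSP1 and OPR3 rose by 2.35 and 0.54. Without Col-0 replicate 1 or spl7 replicate 1 only these 4 calls remained, and AOC4, JAZ10 and MYC2 were lost, with adjusted p-values up to 0.172, 0.0893 and 0.261. For VSP1 and VSP2, the share set by leaf markers amounted to at most 3.81% and 2.03% of the root level.

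Clock genes shifted in both directions. Of 18 measured, 6 were lower and 2 higher, beside 6.5% and 6.75% of all tested genes, with a median log2 change of -0.22. COR27, an evening-phased repressor, had 5.55, 5.62 and 5.77 CPM in Col-0 and 1.3, 1.7 and 1.4 CPM in spl7. GRP7, an RNA-binding protein of the slave oscillator, had 2147, 1867 and 1973 CPM against 1192, 1313 and 1229 CPM. Replicates were tight for both, with log2 changes of -1.94 ± 0.20 (adjusted p = 1.24e-06 in edgeR) and -0.68 ± 0.10 (adjusted p = 0.000144). TOC1, PCL1 and COR28 were lower by -0.58, -0.55 and -0.78, and LNK1 was higher by 0.49. CCA1 (1.03) lost its call without Col-0 replicate 2 or spl7 replicate 1 (adjusted p up to 0.0783) and ELF4 (-0.71) in all fits but that without spl7 replicate 2 (up to 0.152). High-copper spl7 roots were near Col-0 for GRP7 and TOC1, at means of 1941 and 147 CPM.

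Phosphate genes were mostly lower among those called. Of 16 measured, 5 were lower and 1 higher, beside 6.5% and 6.75% of all tested genes, with a median log2 change of -0.28. PHO1, the phosphate exporter that loads the xylem, had 762, 815 and 795 CPM in Col-0 and 365, 369 and 401 CPM in spl7. PHO2, the ubiquitin-conjugating enzyme that acts on PHO1 and on phosphate transporters, had 796, 933 and 788 CPM against 444, 460 and 417 CPM. These abundant messages were cleanly separated, by log2 changes of -1.06 ± 0.13 (adjusted p = 1.59e-05 in edgeR) and -0.93 ± 0.17 (adjusted p = 0.000743). PHT1;8 and the noncoding AT4 were lower by -1.61 and -1.17. SPX1 (-1.28) was lost without Col-0 replicate 2 or spl7 replicate 3 (adjusted p up to 0.195). PHT1;1, an uptake transporter with close paralogs, was higher by 0.47, a call lost without Col-0 replicate 1, Col-0 replicate 3 or spl7 replicate 1 (up to 0.0608).

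Genes of lignin and the xylem wall changed in both directions. Of 20, 7 were higher and 3 lower, beside 6.75% and 6.5% of all tested genes, with a median log2 change of 0.25. The xylem cysteine proteases XCP1 and XCP2 rose by 0.82 ± 0.15 and 0.79 ± 0.16, the secondary wall factor MYB46 by 0.83 ± 0.17, the xylan gene IRX9 by 0.62 ± 0.14 and the ferulate hydroxylase FAH1 by 0.91 ± 0.17 (adjusted p = 0.00105, 0.00224, 0.0021, 0.00543 and 0.00113 in edgeR). C4H, an early enzyme of the phenylpropanoid pathway, had 932, 911 and 815 CPM in Col-0 and 627, 560 and 506 CPM in spl7, a log2 change of -0.65 ± 0.13 (adjusted p = 0.0023), and HCT, another enzyme of this pathway, was lower by -0.59 ± 0.08 (adjusted p = 7.21e-05). LAC11 (0.86) was lost without Col-0 replicate 1, Col-0 replicate 2 or spl7 replicate 2 (adjusted p up to 0.0703), and CESA4 (0.44) and PAL1 (-0.55) in all 6 such fits (up to 0.0858 and 0.155).

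Touch and wounding genes gave 5 lower and 1 higher of 16 measured, beside 6.5% and 6.75% of all tested genes, with a median of -0.36. WRKY33, a defence factor, had 166, 305 and 180 CPM in Col-0 and 120, 113 and 113 CPM in spl7, a log2 change of -0.92 ± 0.18 (adjusted p = 0.00136 in edgeR). Col-0 replicate 2 was the highest library for WRKY33 and for TCH3, ERF6, WRKY53 and ERF5, the other lower members, and ERF5 alone was lost without it (adjusted p = 0.109). CBF3, a cold-response factor, was higher by 1.85 ± 0.35 (adjusted p = 0.00108). Among 14 measured salicylate genes PBS3, NIMIN1 and EDS5 were higher (2.11, 1.30 and 0.60) and PAD4 lower (-0.45), beside the same shares of all tested genes. No member was called among 8 heat shock genes, 6 measured flavonoid genes and 8 cell division genes, whose medians were 0.02, 0.52 and 0.07. Neither the edgeR fit over all root libraries nor DESeq2's Wald test called any of them, and 1, 0 and 3 had an unadjusted p below 0.05. Other edgeR fits did call single members. Without the iron-free spl7 root library of replicate 3, 1 heat shock gene was higher, and 1 cell division gene was higher and 1 lower. The 6 compared libraries alone gave 1 flavonoid gene higher. Fits that left out a compared library gave at most 1 cell division gene lower.

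**Figure D4:**
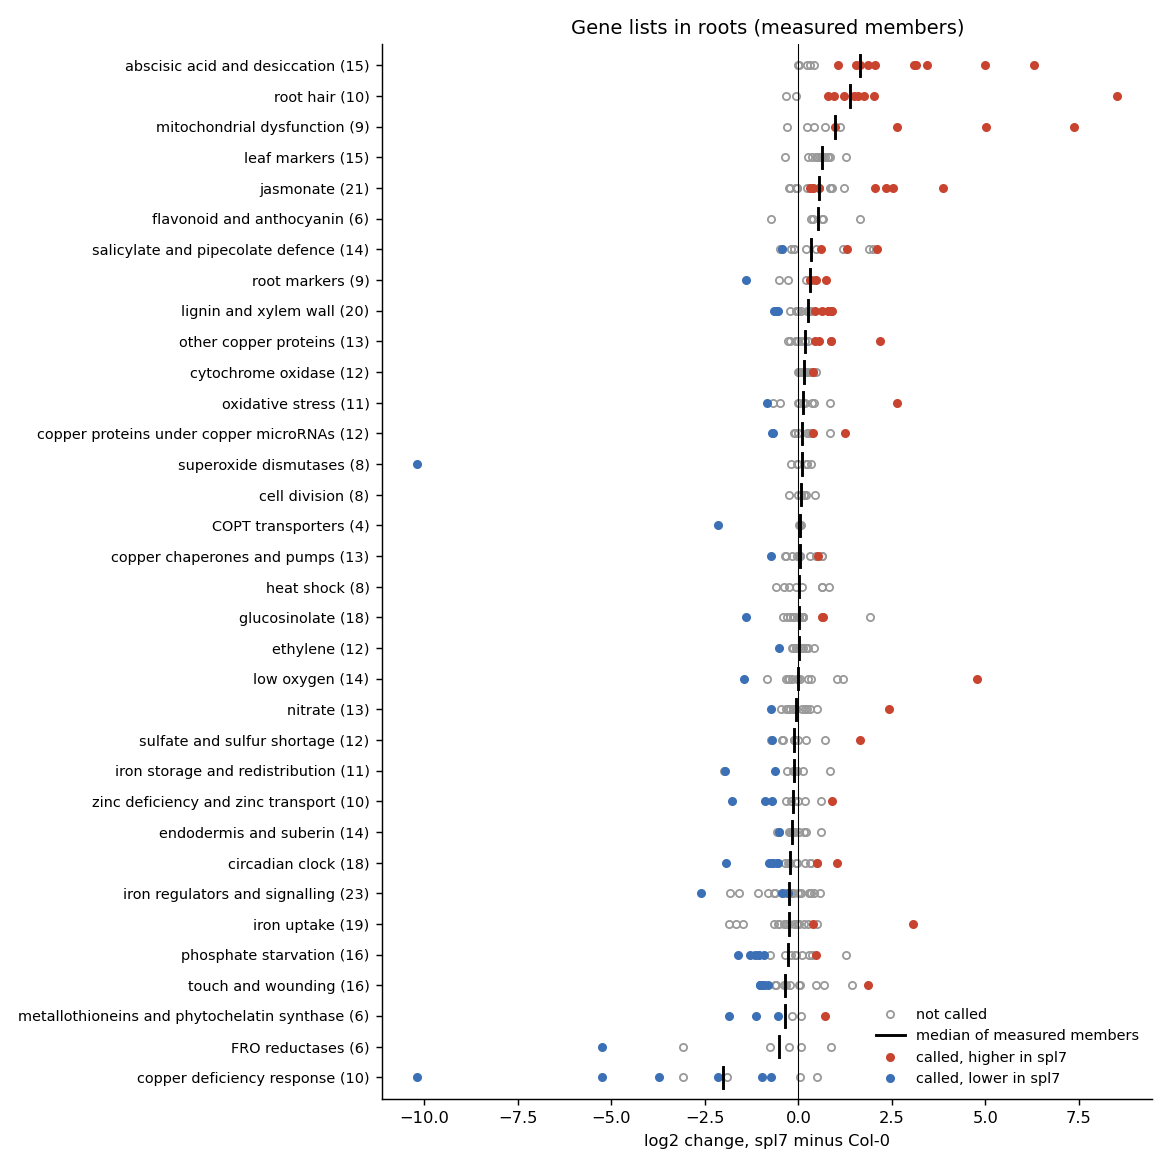
Each row is a gene list with its number of measured members, and each point is a member's fitted log2 change in roots, spl7 minus Col-0, filled where called. Black bars mark medians, from 1.64 for abscisic acid and desiccation to -2.02 for the copper deficiency response, beside 0.01 for all tested genes. Fitted changes of members with almost no reads in a group, such as FSD1 and AT12CYS-2, depend on the prior count.

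Other genes were named for the smallest p-values or the largest changes. A class III peroxidase, AT5G51890, had 16.1, 18.3 and 16.2 CPM in Col-0 and 101, 83 and 93.7 CPM in spl7, a log2 change of 2.45 ± 0.19 (adjusted p = 2.15e-08 in edgeR). An aspartyl protease, AT5G19110, had 16.2, 17.8 and 17.9 CPM against 129, 88 and 65.8 CPM (2.44 ± 0.21, adjusted p = 1.82e-07). It was also high in high-copper spl7 roots, at 82.9, 74.4 and 65.4 CPM, where the peroxidase had 19.2, 32.5 and 38.6 CPM. An acyltransferase, AT2G39980, rose from 1.24, 1.49 and 1.15 CPM to 37.3, 29.1 and 35.1 CPM (4.68 ± 0.64, adjusted p = 4.98e-05). BGLU24, a beta-glucosidase, rose from 1.02, 1.08 and 0.846 CPM to 21.4, 20.8 and 12.4 CPM (4.19 ± 0.57, adjusted p = 3.95e-05).

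More of the largest rises came from genes almost unread in Col-0. The mannose-binding lectin gene AT5G28520 had 0, 0 and 1 reads in Col-0 and 88, 55 and 27 reads in spl7, a 190-fold ratio (95% exact interval 33.6 to 7544). The berberine bridge enzyme-like AT1G26390 rose by 5.95 ± 0.90, the uncharacterized AT3G05770 by 5.03 ± 0.62, LEA7 by 4.38 ± 0.68 and a plastocyanin-like protein, AT4G01380, by 4.23 ± 0.64 (adjusted p = 0.000148, 1.59e-05, 0.000187 and 0.000139 in edgeR). For LEA7, a late embryogenesis abundant protein, the share set by leaf markers came to 42.1%, 45.4% and 17.9% of its root level. HRE2, a factor of the low-oxygen response, had 2, 0 and 1 reads against 27, 21 and 35 reads (30.9-fold, 10.2 to 153), a call lost without any single Col-0 library or spl7 replicate 3 (adjusted p up to 0.109). Its relative HRE1 moved the other way, from 74.8, 72.1 and 67.3 CPM to 22.1, 35.3 and 21.3 CPM (-1.45 ± 0.18, adjusted p = 1.7e-05).

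The largest falls outside copper included several cytochrome P450 genes. CYP712A2 had 27, 38 and 29 reads in Col-0 and none in spl7, at least 9.32-fold lower against a floor of 3 reads per library. Its neighbour CYP93D1 had 6.36, 9.92 and 8.39 CPM against 0.46, 0.155 and 0.31 CPM, a log2 change of -4.70 ± 0.94 (adjusted p = 0.00198 in edgeR), and CYP76G1 was lower by a 97.6-fold ratio of summed reads (95% exact interval 17.2 to 3889). AT5G62360, annotated as an invertase or pectin methylesterase inhibitor, had 36.3, 44.5 and 38.5 CPM against 3.75, 2.63 and 2.09 CPM. It was low in every spl7 library and near the wild type in high-copper spl7 roots (mean 27.4 CPM), with a log2 change of -3.81 ± 0.67 (adjusted p = 0.000638). The transporter ABCB16 and the carboxypeptidase-like scpl33 were lower by -4.03 ± 0.45 and -3.83 ± 0.80 (adjusted p = 3.97e-06 and 0.00278). BHLH32 was lower in every library, at 44.2, 44.4 and 41.2 CPM against 23, 19.5 and 16.6 CPM (-1.14 ± 0.10, adjusted p = 4.89e-07).

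Further groups were listed only after their values had been seen. Their counts can be raised by that choice, and stand beside 6.75% of all tested genes called higher and 6.5% called lower. Triterpene cluster genes, which make root metabolites from squalene derivatives, had 5 of 7 higher. THAS1, thalianol synthase, rose from 0.219, 0.538 and 1.15 CPM to 13.2, 16.1 and 5.43 CPM (4.19 ± 0.60, adjusted p = 7.21e-05 in edgeR), CYP708A2 by 2.12 and CYP705A12 by 0.92. MRN1, marneral synthase, had 3, 0 and 0 reads against 41, 43 and 13 reads (36.1-fold, 12 to 178). CYP705A5 (2.01) was lost without Col-0 replicate 1, Col-0 replicate 2 or spl7 replicate 2 (adjusted p up to 0.0689). Of 10 measured MADS genes of flowering 7 were lower. AGL79 had 20.4, 18.1 and 19.9 CPM against 5.97, 5.73 and 3.65 CPM (-1.92 ± 0.19, adjusted p = 1.19e-06), and AGL8 and MAF4 were lower by -2.36 and -2.47, while AP1, SOC1, MAF5 and SVP all lost their calls without spl7 replicate 2 (adjusted p up to 0.0899, 0.115, 0.0599 and 0.203). In the SPL family 3 of 11 measured genes were lower, SPL7 itself, SPL10 (-0.52 ± 0.10) and SPL12, the last lost in all 6 fits that left out a library (adjusted p up to 0.185).

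Rosettes of the matching spl7 and Col-0 groups differed more widely than roots. Of 20015 genes tested there 8453 (42.2%) were called, 4131 higher (20.6%) and 4322 lower (21.6%). Of the 2260 genes called in roots and tested in rosettes, 1063 were called in both, which is 47% of these root calls and 13.5% of the 7855 rosette calls tested in roots. Their directions were the same for 537 genes and opposite for 526. The difference between the tissues was tested directly over 22078 genes, of which 6314 (28.6%) were called, and 1286 of the 2712 root calls (47.4%) differed between tissues. This contrast contains the root change by which the root calls were chosen. Their share is therefore raised by that choice and cannot be set against 28.6%.

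FSD1 was lost in both tissues, from a mean of 222 CPM to 0.425 CPM in rosettes. FRO4, in contrast, had rosette means of 11.6 CPM in Col-0 and 11.7 CPM in spl7, and its root change differed from its rosette change by a log2 difference of -5.27 ± 0.60 (adjusted p = 1.92e-08 in edgeR). KIN2 rose in roots and was not called in rosettes (means of 807 CPM in Col-0 and 682 CPM in spl7), and the tissue difference was 3.34 ± 0.42 (adjusted p = 1.9e-07). MT2A, PHO1 and PHO2, lower in roots, were called higher in rosettes by 0.42, 0.48 and 0.65, and the tissue differences were -2.28, -1.55 and -1.58 (adjusted p = 1.56e-06, 7.02e-07 and 2.16e-07). COR27, COR28, GRP7, TOC1 and PCL1 were lower in both tissues. Root hair genes could not be compared, since none of the 10 passed the filter in rosettes.

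**Figure D5:**
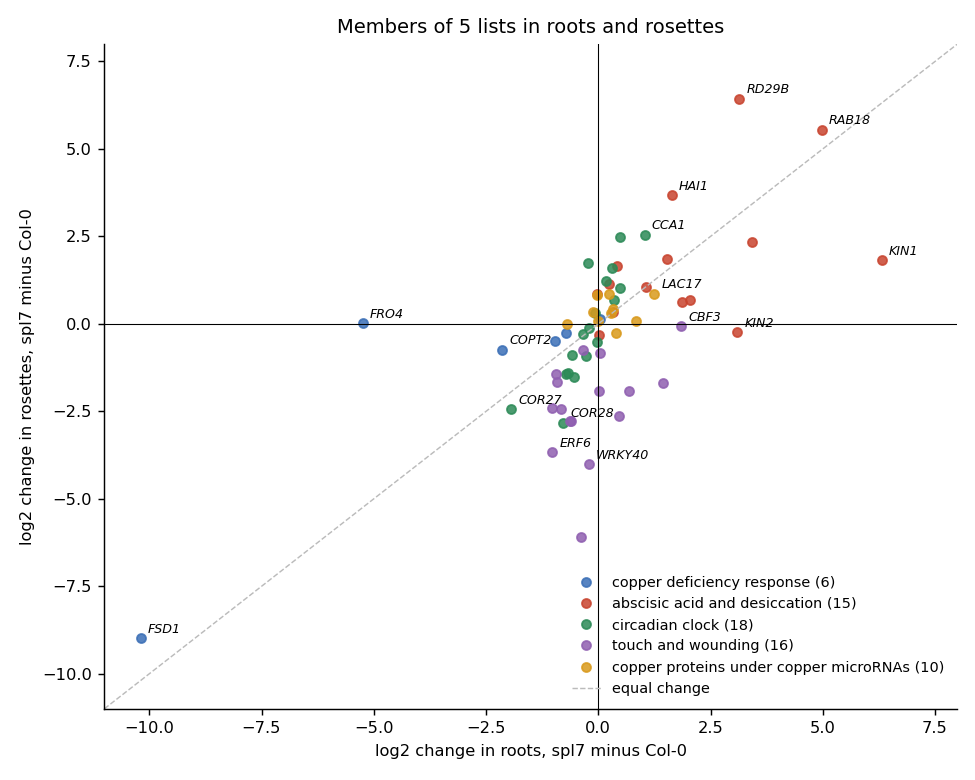
Each point is a gene of 1 of 5 lists, with its fitted log2 change in roots on the horizontal axis and in rosettes on the vertical axis, spl7 minus Col-0 in both. FRO4 lies on the horizontal axis and FSD1 near the dashed line of equal change, while the touch and wounding genes reach lower values in rosettes than in roots. Fitted changes of genes with almost no reads in a group depend on the prior count.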

How the data were processed

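Bowtie, HTSeq and the TAIR10 build are named, without versions, per the submitters' processing notes. The authors deposited unnormalised counts for 33610 gene identifiers per library, and the strand setting is not given in the sources used here, so overlapping, antisense and near-identical genes are uncertain. Names and sequences came from RefSeq TAIR10.1 by locus tag (28932 matched).

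Counts were tested with edgeR 4.0.16 (filterByExpr with a minimum count of 10 and total of 15, TMM, quasi-likelihood) in 1 fit over all 27 root libraries (18 residual degrees of freedom), adjusted over all 20462 genes kept. Rosettes and the tissue difference were fitted likewise, over 27 and all 54 libraries. Standard errors are the log2 change divided by the square root of F. CPM used effective library sizes. Ratios and floors (3 counts) stand for fitted folds where a group had at most 3 summed counts, and their intervals cover counting error only.

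Named genes were SPL7, its neighbours, called list members, the 15 largest changes each way above 1 CPM and the 10 smallest p-values. The comparison, its members and all 35 lists (7 more added later) were chosen with earlier results of these data known. Scripts were tested on simulated data. Alternatives were DESeq2 1.42.0, its size factors, no filter, a replicate block, the compared libraries alone, 26 libraries and leaving out each library.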

Additional observations from a re-analysis of the deposited data

Results flagged for a closer look

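The tissue difference was looked up for SPL7, the copper deficiency genes and the 10 genes with the smallest p-values in roots, and it passed the direct test over both tissues (adjusted p below 0.05 in edgeR) in the 7 genes given here. That test called 28.6% of all 22078 genes, so a call is common. It contains the root change by which the genes with the smallest p-values were chosen, so their calls are favoured by that choice. Values are log2 root change minus log2 rosette change. SPL7 fell further in roots, with a difference of -0.77. FRO4, the copper reductase, differed by -5.27 and CCH, the copper chaperone, by -0.47. The zinc pump HMA2 differed by -1.11 and BHLH32 by -1.24. The peroxidase AT5G51890 rose more in roots, by 1.27, and the aspartyl protease AT5G19110 differed by 3.85. The groups hold 3 libraries each, too few for a test of single outlying libraries.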

How the results depend on the processing

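The number of genes called in roots was 2712 and rose to 5036 (2515 higher, 2521 lower) without the iron-free spl7 root library of replicate 3, which enters the fit through the shared spread, and the cause was not tested. It was 2719 with DESeq2 size factors, 2999 with the DESeq2 Wald test, 2867 from the 6 libraries alone and 2412 without a filter. Leaving out each library gave 1249 to 2521 calls, and 453 to 649 calls of at least 2-fold. SPL7 stayed between -1.39 and -1.50. Leaving out libraries gave 7104 to 7689 calls in rosettes and 4904 to 6066 calls for the tissue difference.

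Same-numbered libraries did not deviate together (correlations -0.03, -0.19 and 0.18), so the numbers were not taken as pairs, and a replicate block gave 2566 calls in roots. Of 106 genes called among 192 named, 106 kept their call with 26 libraries, the Wald test and size factors, 99 with the 6 libraries alone, 105 without a filter, 104 with the block, and 83 to 94 without a library. With few reads for CITF1 and FRO5, and 0 for the copper microRNA precursors other than MIR398C, differences in these genes were not detectable at this depth.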
